A study of Homo sapiens with 6 samples.

Results

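The receptors of the epidermal growth factor family, their ligands and 2 of their regulators were examined in 3 human bladder cancer cell lines that carry FGFR3 fusions. The 9 genes were chosen by name, as a possible route around the loss of FGFR3: the receptors EGFR, ERBB2 and ERBB3, the ligands AREG, EREG, HBEGF and TGFA, the feedback inhibitor ERRFI1 and the sheddase ADAM17. All 9 were found among the 9597 named genes of the deposited table, at 9 of its 10066 assembled loci. ERBB3 shares its locus with PA2G4, whose annotated start lies 813 bases beyond the end of ERBB3, so the value given for ERBB3 throughout is that of the joint locus. The receptor ERBB4 and the ligands EGF, BTC, EPGN, NRG2 and NRG3 were looked up by name and not found, so they could not be analysed.

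RT4 and RT112 cells carry an FGFR3-TACC3 fusion, and SW780 cells carry the fusion that the labels spell FGFR3-BAIBP2L1. Quisinostat, an inhibitor of histone deacetylases, was given for 2 days at 50 nM to RT4, 10 nM to RT112 and 25 nM to SW780 cells, and DMSO alone was the control in each line. Dose and cell line therefore cannot be told apart, and the lines were also grown in different media. There was 1 library of polyadenylated RNA for each line and treatment, 6 in all, so a difference within a line has no replicate check. In 1 label of the SW780 quisinostat library the line is written SW781, and its title was used.

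Levels are in FPKM, a fragment number divided by the length of the transcript and by the size of the library, so that genes can be compared. The table holds no read counts, so the depth is unknown. The median FPKM was 6.59 to 7.39 in the 6 libraries. A change is the log2 ratio of quisinostat over DMSO within a line, with no pseudocount, over the 9112 loci above 0 in all 6 libraries, and a gene was counted as lower or higher past 0.3, a limit that the study used for lower genes and that was applied here in both directions. The epithelial marker EPCAM was at 44.7 to 94.6 FPKM in the 6 libraries, whereas the joint locus of KRT5 and KRT6A was at 0.0433 FPKM in RT4 cells with DMSO and UPK3A was listed at 0 in both RT112 libraries. Of 15 markers of other cell types, COL1A1 and COL3A1 were found, with a summed level of 0.263 to 6.66 FPKM. COL1A1 was higher with quisinostat in all 3 lines (log2 ratios of 3.79, 3.06 and 3.18 in RT4, RT112 and SW780 cells), and COL3A1 was higher in RT4 and RT112 but lower in SW780 cells (2.46, 1.90 and -1.06). The part of other cells in the results was not tested. In bulk RNA, fewer cells of a type and less RNA per cell cannot be told apart.

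The log2 ratios moved with transcript GC content. Across 8258 loci, which are not independent replicates, Spearman's rho of ratio on GC content was -0.50, 0.44 and -0.23 in RT4, RT112 and SW780 cells. A ratio corrected for this trend is given for the 8 genes above 0 in all libraries, and for other named genes where the correction took a printed ratio across the limit of 0.3. The origin of the trend was not tested.

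EGFR, ERBB2, ERBB3 and ERBB4 are receptor tyrosine kinases that signal as dimers. Ligands bind EGFR, ERBB3 and ERBB4, whereas ERBB2 has no known ligand of its own and ERBB3 has little kinase activity, so these latter receptors depend on partners. Most ligands are made as membrane-bound precursors that a metalloprotease such as ADAM17 cuts free. In the urothelium this system supports growth and repair, and its signals enter the same MAPK and PI3K pathways as those of FGFR3.

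The ligands held the widest changes among the 9 genes. AREG encodes amphiregulin, an EGFR ligand, and lies on chromosome 4 (GRCh38, chr4:74445134-74455009, plus strand). It was at 0.613 FPKM in RT4 cells with DMSO and 15.0 FPKM with quisinostat. It was at 3.41 and 7.45 FPKM in RT112 cells, and at 8.67 and 49.5 FPKM in SW780 cells. Quisinostat was thus the higher library in 3 of 3 lines, by 24.5-fold, 2.18-fold and 5.72-fold, while the RT112 quisinostat library stayed below the SW780 DMSO library. On the log2 scale these were 4.61, 1.13 and 2.51, and after the GC correction 4.33, 1.23 and 2.42. The share of all loci with a higher ratio was 1.04%, 11.7% and 2.05% in RT4, RT112 and SW780 cells.

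EREG encodes epiregulin, a ligand of EGFR and ERBB4, and is the neighbour of AREG, ending 56382 bases before it on the same strand (chr4:74365143-74388751). It was at 0.0170 FPKM in RT4 cells with DMSO and 0.994 FPKM with quisinostat, and at 4.38 and 25.4 FPKM in SW780 cells. In RT112 cells EREG was listed at 0 in both libraries, so no ratio was taken there and EREG was left out of the counts over loci above 0 in all libraries. The fold in SW780 cells (5.79) was close to that of AREG in the same cells. The log2 ratio of 5.87 in RT4 cells starts from a level whose read support is unknown.

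HBEGF encodes heparin-binding EGF-like growth factor, a ligand of EGFR and ERBB4 (chr5:140332843-140346631, minus strand). It was at 1.14 and 3.82 FPKM in RT4 cells with DMSO and quisinostat, and at 2.51 and 12.9 FPKM in SW780 cells. In RT112 cells it went the other way, from 11.7 to 4.10 FPKM. On the log2 scale the ratios were 1.75, -1.51 and 2.36 in RT4, RT112 and SW780 cells, and the GC correction left them at 1.74, -1.54 and 2.34. In RT112 cells, 1.72% of all loci had a lower ratio than HBEGF. The DMSO level of HBEGF was highest in the line where quisinostat was lower, RT112, and the quisinostat levels of RT4 and RT112 cells were alike (3.82 and 4.10 FPKM).

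TGFA encodes transforming growth factor alpha, a ligand of EGFR (chr2:70447280-70554193, minus strand). It was at 6.17 and 7.34 FPKM in RT4 cells, 9.33 and 6.42 FPKM in RT112 cells and 5.43 and 17.7 FPKM in SW780 cells, with DMSO and quisinostat in that order. SW780 cells had the lowest level of the 3 lines with DMSO and the highest with quisinostat. Its log2 ratios were 0.25, -0.54 and 1.70. After the GC correction the ratio in RT4 cells was -0.01.

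The sequences upstream of AREG, EREG and HBEGF are shown because these 3 ligands had the highest log2 ratios of the 9 genes in SW780 cells, and because HBEGF parted from AREG in RT112 cells. Each is the 250 bases before the RefSeq start (GRCh38.p14), read 5′ to 3′ on the strand of the gene: AREG, chr4:74444886-74445135 (plus); EREG, chr4:74364895-74365144 (plus); HBEGF, chr5:140346604-140346853 (minus). Capitals mark matches, on either strand, to 5 motifs. They are the cyclic AMP response element TGACGTCA, and the AP-1 site TGACTCA. The TATA box was searched as TATAAA. The GC box was searched as GGGCGG. The CCAAT box was searched by its name.
AREG: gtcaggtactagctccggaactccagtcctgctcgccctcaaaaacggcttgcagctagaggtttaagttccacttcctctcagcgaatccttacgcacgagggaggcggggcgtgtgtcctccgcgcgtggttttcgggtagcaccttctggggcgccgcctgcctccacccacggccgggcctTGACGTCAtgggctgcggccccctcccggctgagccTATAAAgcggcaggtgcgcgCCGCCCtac
EREG: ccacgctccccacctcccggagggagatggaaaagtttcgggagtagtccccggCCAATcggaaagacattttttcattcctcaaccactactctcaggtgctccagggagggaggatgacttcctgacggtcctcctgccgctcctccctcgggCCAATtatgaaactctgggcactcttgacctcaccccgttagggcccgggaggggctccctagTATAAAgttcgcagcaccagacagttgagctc
HBEGF: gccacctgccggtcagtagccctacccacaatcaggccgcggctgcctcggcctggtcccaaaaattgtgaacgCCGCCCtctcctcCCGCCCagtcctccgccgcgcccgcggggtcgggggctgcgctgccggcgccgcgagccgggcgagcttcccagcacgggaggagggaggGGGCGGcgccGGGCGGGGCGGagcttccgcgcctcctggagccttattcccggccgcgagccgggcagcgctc
AREG held TGACGTCA at -65, TATAAA at -29 and 1 GC box at -9, counted from the start. EREG held TATAAA at -32, 2 matches to CCAAT and no GC box. HBEGF held 5 GC boxes, of which 2 overlap each other, and none of the other motifs. Among 35116 promoters of the same length, 1.65% held TGACGTCA, 4.20% TGACTCA, 10.7% TATAAA, 42.6% GGGCGG and 32.0% CCAAT. A match is a description of these letters and not of a bound factor.

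Promoters were found for 8 of the 9 genes, with 10 entries in all, since EGFR and TGFA have an additional start each. AREG was the only gene of the 8 with TGACGTCA. TATAAA was also found at the downstream start of EGFR, which held 2 matches to it and 2 to TGACTCA. The GC content of the 250 bases was 65.2% for AREG, 58% for EREG and 76.4% for HBEGF, against a median of 58% over all promoters.

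The 4 ligands summed to 7.93 FPKM in RT4 cells with DMSO and 27.2 FPKM with quisinostat, a 3.42-fold difference. In SW780 cells the sum was 21.0 FPKM with DMSO and 105 FPKM with quisinostat, 5.03-fold. In RT112 cells it was 24.4 FPKM with DMSO and 18.0 FPKM with quisinostat, 0.735 of the control. The lines thus had the order RT112, SW780, RT4 with DMSO and SW780, RT4, RT112 with quisinostat.

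**Figure D1:**
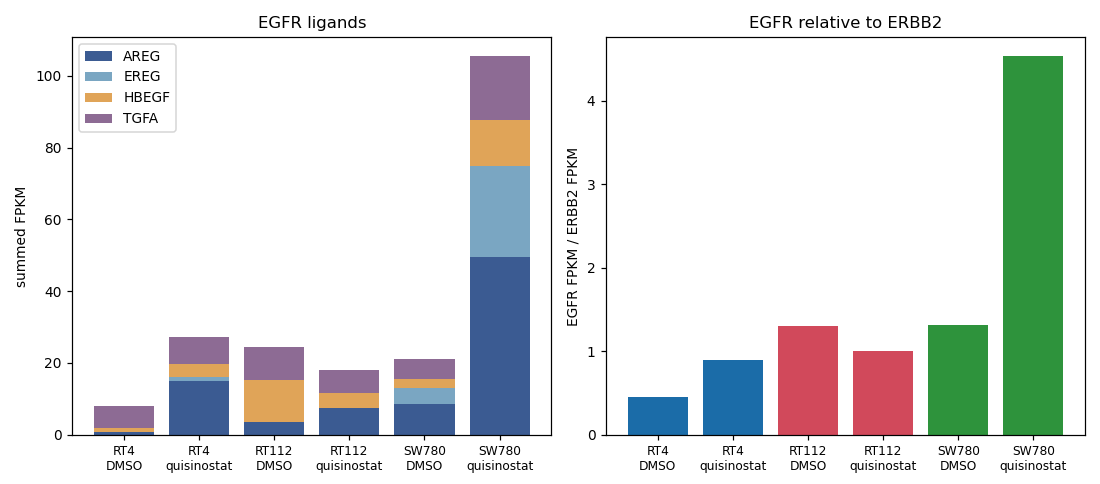
Left, stacked bars of the FPKM of AREG, EREG, HBEGF and TGFA in each of the 6 libraries; right, bars of the EGFR FPKM divided by the ERBB2 FPKM, with 1 library per bar and so no error bar. The ligand sum of the SW780 quisinostat library (105 FPKM) is the highest of the 6, and RT112 is the line where the sum is lower with quisinostat.

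The make-up of the sum also differed between treatments. AREG supplied 7.73% of it in RT4 cells with DMSO and 55.2% with quisinostat. In RT112 cells its share was 14.0% and 41.5%, and in SW780 cells 41.3% and 47.0%. The share of TGFA was lower with quisinostat in each line, from 77.7% to 27.0% in RT4, from 38.2% to 35.7% in RT112 and from 25.9% to 16.8% in SW780 cells. AREG was thus the ligand with the largest share of these 4 in every quisinostat library, where it had been so with DMSO in SW780 cells alone. HBEGF had held the largest share in RT112 cells with DMSO, at 47.9%.

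Of the other ligands, the neuregulins NRG1 and NRG4, which bind ERBB3 and ERBB4 or ERBB4 alone, were at low levels. NRG1 was at 0.153 and 0.894 FPKM in RT4 cells, 0 and 0.166 FPKM in RT112 cells and 1.97 and 5.28 FPKM in SW780 cells with DMSO and quisinostat. The quisinostat library was the higher in each line for NRG1. NRG4 had log2 ratios of 0.68, 0.67 and -0.83, and 0.21 in RT4 cells after the GC correction.

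EGFR, the receptor for all 4 of the summed ligands (chr7:55019021-55211628, plus strand), differed little between the lines with DMSO. It was at 18.4 FPKM in RT4, 18.4 FPKM in RT112 and 20.8 FPKM in SW780 cells, a 1.13-fold range. With quisinostat it was at 16.3, 23.8 and 47.8 FPKM, a 2.94-fold range. Its log2 ratios were -0.18, 0.37 and 1.20, and 7.92% of all loci had a higher ratio in SW780 cells. After the GC correction the ratio in RT4 cells was -0.38, past the limit, and those of RT112 and SW780 cells were 0.42 and 1.12. In the SW780 quisinostat library 91.7% of all loci lay below EGFR in level, against 79.0% in the DMSO library.

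ERBB2 (chr17:39687914-39730426, plus strand), the partner receptor that is amplified in part of bladder cancers, was at 41.2 FPKM in RT4 cells with DMSO and 18.2 FPKM with quisinostat. It was at 14.1 and 23.8 FPKM in RT112 cells, and at 15.8 and 10.5 FPKM in SW780 cells. RT4 cells had the highest level with DMSO, 2.92-fold over RT112 cells, and RT112 cells had the highest with quisinostat. This gave log2 ratios of -1.18, 0.75 and -0.59. ERBB2 has the highest GC content of the 9 genes (59.3%), and its ratios had the signs that loci of that GC content had in each line. After the correction they were -0.49, 0.24 and -0.40, so the ratio of RT112 cells no longer passed 0.3.

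The ERBB3 locus (ERBB3 chr12:56076799-56103505, PA2G4 chr12:56104319-56113907, both plus strand) holds the genes of the neuregulin receptor and of PA2G4, a growth-regulating protein that binds ERBB3. It was at 64.1, 62.8 and 53.7 FPKM with DMSO and 39.9, 43.9 and 39.4 FPKM with quisinostat in RT4, RT112 and SW780 cells. All 3 quisinostat libraries were below all 3 DMSO libraries. This held for 1 of the 8 genes above 0 in all libraries and for 4.43% of all loci, and the opposite held for 0 of the 8 and 6.18% of all loci. The log2 ratios were -0.68, -0.52 and -0.45, and -0.69, -0.55 and -0.47 after the GC correction. Which of the genes at this locus carried the difference cannot be told apart from these values.

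**Figure D2:**
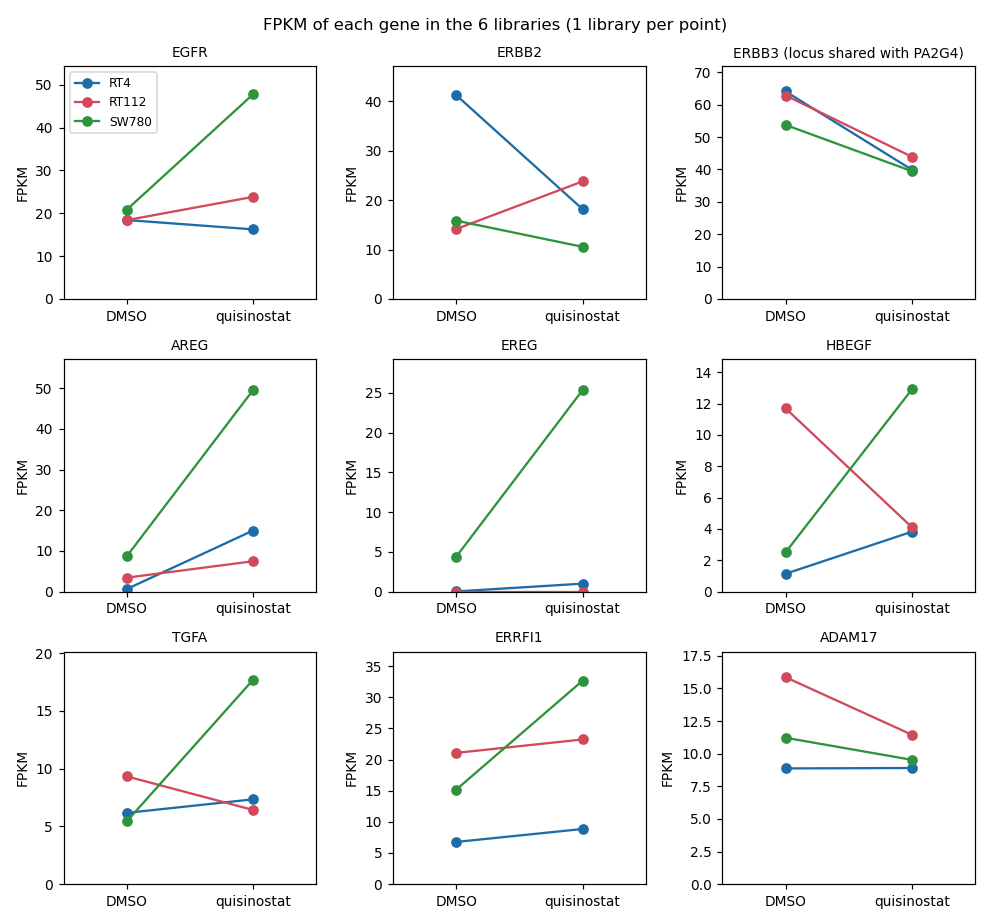
FPKM (vertical axis, from 0) of each of the 9 genes with DMSO and with quisinostat, with 1 point per library, a line joining the libraries of a cell line, and no error bars since there is 1 library per point. AREG is higher with quisinostat in all 3 lines, the ERBB3 locus is lower in all 3, and HBEGF of RT112 cells (11.7 to 4.10 FPKM) crosses that of SW780 cells (2.51 to 12.9 FPKM).

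EGFR stood at 0.447 of the ERBB2 level in RT4 cells with DMSO and 0.895 with quisinostat. The ratio was 1.30 and 1.00 in RT112 cells, and 1.32 and 4.53 in SW780 cells. Its change on the log2 scale was 1.00, -0.38 and 1.79, and with GC-corrected values 0.10, 0.19 and 1.51, so the change of SW780 cells is the one that kept its sign and passed 0.3 on both scales. For FGFR3, the receptor in the fusions, the log2 ratios were -1.71, 0.93 and -2.00. Its levels were 20.0, 17.2 and 2.49 FPKM with DMSO and 6.12, 32.8 and 0.621 FPKM with quisinostat. The study reported lower FGFR3 protein with quisinostat. Its RT-qPCR found FGFR3 mRNA not lowered in any line and raised in SW780 cells, unlike the ratios here in RT4 and SW780 cells. The measures differ, since the RT-qPCR was normalized to ACTB and FPKM is not. ACTB had log2 ratios of -0.83, 1.10 and 0.30 in RT4, RT112 and SW780 cells. EGFR over FGFR3 was 0.923 and 2.66 in RT4 cells, 1.07 and 0.726 in RT112 cells, and 8.36 and 77.0 in SW780 cells. The last value rests on an FGFR3 level of 0.621 FPKM. These quotients were not corrected for GC content. FGFR3 has a GC content of 62.0%, and its GC-corrected ratios were -0.72, 0.20 and -1.71. For the ERBB receptors, the study's blots measured protein and not RNA, and they showed EGFR unaffected by quisinostat. ERBB2, ERBB3 and ERBB4 protein was lower with quisinostat in SW780 cells. In RT4 and RT112 cells, ERBB2 and ERBB3 protein was unaffected and ERBB4 protein was higher.

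ERRFI1 (chr1:8004404-8026308, minus strand), which encodes the cytoplasmic inhibitor MIG6 that binds the EGFR kinase, was at 6.77 and 8.85 FPKM in RT4 cells. It was at 21.1 and 23.2 FPKM in RT112 cells, and at 15.2 and 32.6 FPKM in SW780 cells. RT4 cells had the lowest level in both treatments. The log2 ratios were 0.39, 0.14 and 1.11, and 0.03, 0.29 and 1.00 after the GC correction.

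ADAM17 (chr2:9488486-9556732, minus strand), the metalloprotease that sheds AREG, EREG, HBEGF and TGFA, was at 8.87 and 8.90 FPKM in RT4 cells. It was at 15.9 and 11.5 FPKM in RT112 cells, and at 11.2 and 9.53 FPKM in SW780 cells. The log2 ratios were 0.01, -0.47 and -0.24. After the GC correction they were -0.39, -0.31 and -0.35. None of the 3 lines thus had a higher ADAM17 level past the limit on either scale, including the lines with the higher ligand sums.

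Counting over the 8 genes above 0 in all libraries, RT4 cells had 2 lower (ERBB2 and ERBB3) and 3 higher (AREG, HBEGF and ERRFI1), where 33.5% of all loci were lower and 40.3% higher. RT112 cells had 4 lower (ERBB3, HBEGF, TGFA and ADAM17) and 3 higher (EGFR, ERBB2 and AREG), where 25.2% of all loci were lower and 36.0% higher. SW780 cells had 2 lower (ERBB2 and ERBB3) and 5 higher (EGFR, AREG, HBEGF, TGFA and ERRFI1), where 28.2% of all loci were lower and 32.8% higher. In all 3 lines alike, 1 of the 8 was lower (ERBB3) and 1 higher (AREG), against 4.99% and 11.4% of all loci. Without RT112 cells, 2 were lower in both remaining lines (ERBB2 and ERBB3) and 3 higher (AREG, HBEGF and ERRFI1), against 17.9% and 23.0% of all loci. Without RT4 cells 2 were higher (EGFR and AREG), against 15.9% of all loci.

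In RT4, RT112 and SW780 cells the 8 genes had a median log2 ratio of 0.13, -0.16 and 1.15. Over all 9112 loci it was 0.08, 0.06 and 0.04. With the GC correction the medians of the 8 genes were -0.20, -0.04 and 1.06. The set as a whole lay farthest from the median of all loci in SW780 cells.

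**Figure D3:**
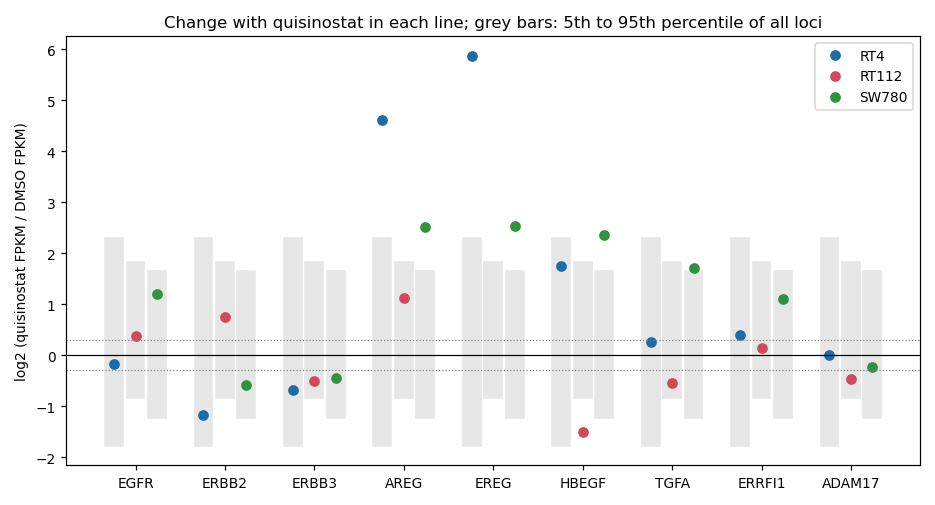
Log2 ratio of quisinostat over DMSO (vertical axis) of the 9 genes in each line, with 1 point per pair of libraries, grey bars from the 5th to the 95th percentile of all loci in that line, and dotted lines at the limit of 0.3. EREG has no point in RT112 cells, where it is listed at 0. AREG lies above the grey bar in RT4 and SW780 cells, and HBEGF above it in SW780 and below it in RT112 cells.

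**Figure D4:**
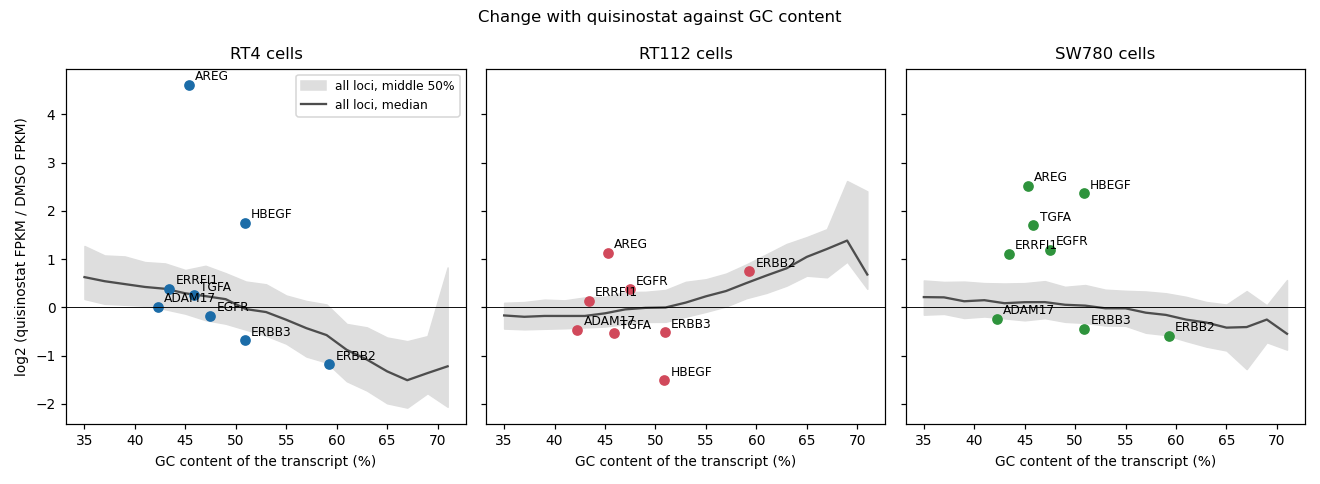
Log2 ratio of quisinostat over DMSO (vertical axis) against the GC content of the transcript (horizontal axis, %) in each line. The grey line is the median and the grey band the middle 50% of all loci in windows of GC content, and points are the 8 genes above 0 in all libraries. ERBB2 lies at the lower edge of the band in RT4 and SW780 cells and inside it in RT112 cells, and AREG lies above it in all 3.

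Across the 3 lines, the effect of quisinostat was tested with limma on log2(FPKM + 1), with cell line as a block, over the 9430 loci that averaged 1 FPKM or more. This scale understates the change of low genes. None of the 9 genes passed an adjusted p of 0.05, and 0 of the 9430 loci did (0.0%), with a smallest adjusted p of 0.161. At an unadjusted p under 0.05, limma counted 392 loci as lower and 913 as higher, and with quantile normalization 570 and 638. AREG had the lowest adjusted p of the 9 (log2 change of 2.21, SE 0.46, adjusted p = 0.246, limma), with a range of 0.0808 to 0.973 over 11 alternatives. For the ERBB3 locus the change was -0.54 (SE 0.17, adjusted p = 0.317, limma), lower in 3 of 3 lines. For EREG it was 1.09 (SE 0.49, adjusted p = 0.391) and for ERRFI1 0.51 (SE 0.24, adjusted p = 0.408). For EGFR it was 0.45 (SE 0.29, adjusted p = 0.498), and the adjusted p of ADAM17, TGFA, HBEGF and ERBB2 lay between 0.639 and 0.701. The 3 lines did not share a change of these genes that this test could tell from the spread of the changes between lines.

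The lines were compared with each other in the same limma fit, over the DMSO and the quisinostat library of each line. The treatment was taken out as a common shift. These 2 libraries of a line are not replicates, so the spread in this test holds any line-specific response to quisinostat. None of the 9 genes passed an adjusted p of 0.05 between RT4 and RT112 cells, between RT4 and SW780 cells or between RT112 and SW780 cells, where 4.85%, 5.1% and 1.13% of all loci did. EREG came closest. It was lower in RT4 than in SW780 cells by a log2(FPKM + 1) difference of -3.06 (SE 0.60, adjusted p = 0.0514, limma), with a range of 0.0456 to 0.0954 over 7 alternatives. It was lower in RT112 than in SW780 cells by -3.57 (SE 0.60, adjusted p = 0.0624, limma). ERRFI1 was lower in RT4 cells than in RT112 cells by -1.40 (SE 0.30, adjusted p = 0.0603, limma) and than in SW780 cells by -1.41 (SE 0.30, adjusted p = 0.0603). AREG had -2.12 between RT4 and SW780 cells (SE 0.56, adjusted p = 0.0936, limma) and -1.86 between RT112 and SW780 cells (SE 0.56, adjusted p = 0.157). Between RT4 and SW780 cells, EGFR had -0.83 (SE 0.35, adjusted p = 0.213, limma) and ERBB2 1.03 (SE 0.45, adjusted p = 0.225).

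With DMSO, the order of the levels was SW780, RT112, RT4 for AREG, with a 14.1-fold range, and RT112, SW780, RT4 for HBEGF, with a 10.3-fold range. ERRFI1 and ADAM17 had that same order as HBEGF, with ranges of 3.11-fold and 1.79-fold. TGFA (1.72-fold), the ERBB3 locus (1.19-fold) and EGFR (1.13-fold) had the narrower ranges. With quisinostat, SW780 cells had the highest level of EGFR, AREG, EREG, HBEGF, TGFA and ERRFI1, and the lowest of ERBB2 and the ERBB3 locus. Neighbours in these orders have 1 library each per treatment and were not tested apart from the fit above.

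The genes around this receptor system were read from lists chosen with results of these data known. The background to their counts is the share of all loci past the limit, which was 33.5% lower and 40.3% higher in RT4, 25.2% and 36.0% in RT112, and 28.2% and 32.8% in SW780 cells. Of 14 genes of ligand release, 12 were found and were above 0 in all libraries. In RT4 cells 4 were lower and 4 higher, in RT112 cells 4 and 6, and in SW780 cells 5 and 1, and 0 passed the limit the same way in all 3. Their median log2 ratios were -0.00, 0.22 and -0.18 in RT4, RT112 and SW780 cells. ADAM10, the other main sheddase of ERBB ligands, had log2 ratios of -0.01, -0.45 and -0.34, close to those of ADAM17, and -0.53, -0.28 and -0.51 after the GC correction. ADAM9, a related metalloprotease, was at 21.6 and 56.0 FPKM in RT4 cells, 33.5 and 51.7 FPKM in RT112 cells and 93.6 and 108 FPKM in SW780 cells. FURIN had log2 ratios of -0.50, 1.19 and 0.79, and 0.45 in RT4 cells after the GC correction. FRMD8 and RHBDF1, which encode partners of ADAM17 in its maturation and surface stability, parted between the lines: FRMD8 had ratios of -9.08, 5.33 and -1.68, and RHBDF1 -1.19, 2.83 and -0.37. The FRMD8 value of RT4 cells goes down to 0.0093 FPKM, and both genes are GC-rich (61.3% and 62.9%). After the GC correction FRMD8 was at -8.16, 4.65 and -1.41 and RHBDF1 at -0.11, 2.03 and -0.05, so RHBDF1 was no longer lower past the limit in RT4 and SW780 cells.

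Of 27 receptor inhibitors and turnover factors, 21 were found. In RT4 cells 6 were lower and 10 higher, in RT112 cells 4 and 9, and in SW780 cells 6 and 10. The median ratios were 0.27, 0.09 and 0.23. PTPN2, a tyrosine phosphatase that acts on EGFR, was lower in all 3 lines with log2 ratios of -0.56, -0.55 and -0.54. SH3KBP1, the adaptor of CBL in receptor endocytosis, was higher in all 3 (1.40, 0.71 and 1.98), and so was PTPRK, a receptor-type phosphatase (0.70, 0.99 and 1.21). These 3 kept their side of the limit after the GC correction. LRIG1, a membrane inhibitor of the family, was at 0.0692 to 2.78 FPKM. USP8, a deubiquitinase of endosomal sorting, had ratios of 0.44, -1.43 and -4.90, with levels of 7.39 and 0.247 FPKM in SW780 cells, and the GC correction took the ratio of RT4 cells to -0.02.

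Of 22 adaptors and proximal effectors, 20 were found. In RT4 cells 5 were lower and 8 higher, in RT112 cells 3 and 6, and in SW780 cells 2 and 4, with 0 the same way in all 3 and medians of 0.11, 0.06 and -0.04. GRB2, the adaptor that links the receptors to RAS, was level, with log2 ratios of 0.04, 0.01 and -0.02. HRAS (-1.66, 0.87 and -0.43) and SRC (-1.20, 0.72 and 0.06) were lower in RT4 and higher in RT112 cells, and HRAS has a GC content of 65.8%. After the GC correction HRAS was at -0.30, -0.16 and -0.02 and SRC at -0.50, 0.21 and 0.26, so neither was higher past the limit in RT112 cells. GAB2, a docking protein, was at 0.587 and 2.95 FPKM in SW780 cells.

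**Figure D5:**
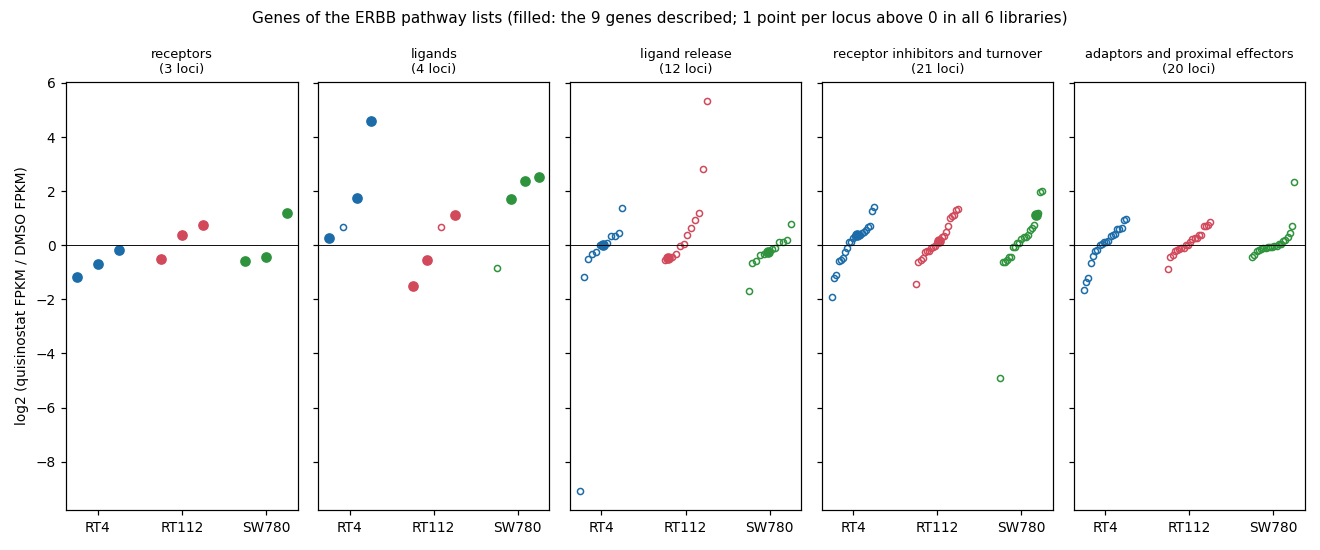
Log2 ratio of quisinostat over DMSO (vertical axis) of the genes of 5 lists in each line, in order of ratio, with 1 point per locus above 0 in all 6 libraries, filled for the genes described here and open for the others. The ligands of SW780 cells lie high except NRG4 (-0.83), while of the 20 adaptors of that line 2 are lower and 4 higher past the limit, with GAB2 (2.33) the highest.

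Of 9 proteins that bind or chaperone ERBB receptors, 7 were found, at loci that include the ERBB3 locus itself. In RT4 cells 3 were lower and 1 higher, in RT112 cells 4 and 1, and in SW780 cells 3 and 2, with medians of -0.21, -0.52 and -0.24. TOB1, an antiproliferative protein described as an ERBB2 partner, was lower in all 3 lines (-0.79, -1.08 and -1.55). HSP90AA1 and HSP90AB1, the chaperones of ERBB2, had ratios of 0.41, -0.66 and -0.62 and of -0.21, -0.57 and -0.24. The GC correction took HSP90AA1 to 0.13 in RT4 cells, and HSP90AB1 to -0.38 in RT4 and -0.31 in SW780 cells. Of 10 neighbours of ERBB2 on chromosome 17, 6 were found and 5 were above 0 in all libraries. In RT4 cells 3 of these were lower and 0 higher, in RT112 cells 1 and 1, and in SW780 cells 1 and 2, with medians of -0.35, -0.07 and 0.20. CDK12, a transcriptional kinase gene, had ratios of -1.27, -0.23 and -0.98. GRB7, next to ERBB2 and often amplified with it, had ratios of -1.35, 0.11 and 0.73, and -0.59, -0.46 and 0.94 after the GC correction, so it was higher in SW780 cells where ERBB2 was lower.

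Of 6 genes known to respond to histone deacetylase inhibitors, 5 were found, and GSN was higher in all 3 lines (0.93, 2.79 and 1.50). CDKN1A had ratios of 0.12, 1.36 and 0.52, and the GC-corrected ratio in RT4 cells was 0.68. CLU had ratios of 0.09, 2.62 and -0.32, and H1F0 of 1.08, 0.45 and -0.04. TUBB3, at a locus shared with TCF25, had -1.90, 0.54 and -0.61, and -0.04 in RT112 cells after the GC correction. In RT4 cells 1 of the 5 was lower and 2 higher, in RT112 cells 0 and 5, and in SW780 cells 2 and 2, with medians of 0.12, 1.36 and -0.04. The 17 epithelial and urothelial markers were all found and 16 were above 0 in all libraries. Of these, 11 were lower and 3 higher in RT4 cells, 2 and 9 in RT112 cells, and 12 and 3 in SW780 cells, with medians of -1.004, 0.52 and -0.83. Over all loci, 33.5% were lower and 40.3% higher in RT4, 25.2% and 36.0% in RT112, and 28.2% and 32.8% in SW780 cells. GAPDH, often used as a loading control, had ratios of -1.03, -0.45 and -0.95 and ACTB of -0.83, 1.10 and 0.30, and fusion partner TACC3 had -1.42, 0.12 and -0.85. After the GC correction GAPDH was at -0.38 and TACC3 at -0.88 in RT4 cells.

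The 3 loci whose FPKM followed each receptor most closely were taken by Pearson's correlation of log2(FPKM + 1) over the 6 libraries, which the loci share, among 5843 loci, as a description. For EGFR they were PTK2B (r = 0.98), FHL2 (0.96) and LRCH1 (0.94). PTK2B, a focal adhesion kinase family member, was at 12.1 and 25.6 FPKM in SW780 cells. For ERBB2 they were MED24, PRKCSH and FOXK2, each with r of 0.99 or above. MED24 (chr17:40019097-40061215) and FOXK2 (chr17:82519713-82644662) lie on chromosome 17 as well. MED24 was at 12.9 and 6.07 FPKM in RT4 cells. For the ERBB3 locus they were EIF4B, DDX23 and RBMX (r = 0.98 or above), of which EIF4B and DDX23 also lie on chromosome 12. The share of the 5843 loci on each chromosome was not computed, and the FPKM used here were not corrected for GC content.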

How the data were processed

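RNA-seq was made from RT4, RT112 and SW780 cells, with 1 library for quisinostat and 1 for DMSO in each. According to the submitters' processing notes, the tools were CASAVA 1.8.2, Trimmomatic 0.36, HISAT2 2.2.1, SAMtools 1.15.1 and StringTie 2.2.1 on GRCh38, and the authors took values per gene with Ballgown. The deposited values are FPKM, scaled by the authors to transcript length and mapped fragments. They hold no counts, so depth is unknown and no counting interval was computed.

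From the 10515 rows, 1 value per assembled locus was kept (10066). Log2 ratios were taken within a line, with a limit of 0.3. The members and lists were chosen with earlier results of these data known. All 9 members are named. Other genes of the lists were named where they passed the limit in all 3 lines. Most of the 3 per list with the largest mean absolute ratio, at a mean FPKM of at least 1, were named as well. Of these, SH3GL1, STARD3, BAIAP2L1, UPK1A and UPK2 are not described. Genes chosen after their values were seen are EPCAM, ADAM9, ADAM10, LRIG1, SRC, GRB2, HSP90AB1, CDKN1A, H1F0, UPK3A, NRG1 and NRG4. GC content came from GENCODE 29 transcripts for 8407 of 9112 loci (92.3%), and a lowess curve (span 0.3) of ratio on GC content was subtracted. limma 3.58.1 in R 4.3.3 was run on log2(FPKM + 1) with a trend and Benjamini-Hochberg adjustment. Cell line is the block because the quisinostat library and its control are of 1 line. No other source is stated for the libraries, and no line and treatment has a replicate. In the blocked fit, p-values measure only the spread left after cell line and a common treatment shift. That spread holds line-specific responses, and the dose differs with the line. In simulated data of 9430 loci, the quisinostat fit recovered 41 of 100 loci changed by 2 and 65 of 100 changed by 3 on the log2 scale, and called 0 unchanged loci. The comparison of RT4 with RT112 cells recovered 34 and 51 of 100. The simulated spread was independent between loci, each treatment shift was the same in all 3 lines and no GC trend was included. These rates therefore hold for that setting only. Promoters are RefSeq (GRCh38.p14). Python 3.11.15 with pandas 2.3.3 and NumPy 2.4.6 was used. Alternatives were pseudocounts, filters, centring, rescaling, the GC correction, other limits and leaving out a line.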

Additional observations from a re-analysis of the deposited data

Results flagged for a closer look

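ERBB2, HBEGF and TGFA, each with 1 library per line and treatment, passed the limit of 0.3 in opposite directions in different lines, and the difference between lines was not tested. In RT4, RT112 and SW780 cells the log2 ratio of ERBB2 was -1.18, 0.75 and -0.59, and that of HBEGF 1.75, -1.51 and 2.36. TGFA had -0.54 in RT112 and 1.70 in SW780 cells. With the GC correction ERBB2 was at 0.24 in RT112 cells, inside the limit, whereas HBEGF (-1.54) and TGFA (-0.45) stayed below it there.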

How the results depend on the processing

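Of 198 alternative values of the ratio of a gene in a line, 192 stayed on their side of the limit, 2 of them with a change of sign inside it (TGFA in RT4 cells with the GC correction and ADAM17 in RT4 cells with centred ratios). Of the others, 3 passed it anew, 2 no longer passed it and 1 reversed. With the GC correction, 4 genes were lower in RT4 cells (against 2, with 33.4% of all loci) and 2 in all 3 lines (against 1, ERBB3, joined by ADAM17, with 7.73% of all loci), and ADAM17 in RT4 cells reversed to -0.39 from 0.01. EGFR over ERBB2 reversed to 0.19 from -0.38 in RT112 cells, an alternative chosen after seeing the data. At a limit of 0.5, 1 gene was lower in SW780 cells and 0 in all 3 lines. At a limit of 1, 1 was lower in RT4, 1 lower and 1 higher in RT112, 0 lower in SW780 and 0 lower in all 3 lines. Leaving out a cell line gave 1 to 2 genes lower and 1 to 3 higher in all remaining lines, against 8.18% to 17.9% and 15.9% to 23.0% of all loci. Counting loci above 0 in both libraries of a line, also chosen after seeing the data, adds EREG. This count gave 4 higher in RT4 and 6 in SW780 cells, against 41.1% and 34.6% of all loci. Between RT4 and SW780 cells, quantile normalization and rescaling to a common sum each let limma call 1 of the 9 genes (EREG, adjusted p = 0.0486 and 0.0456) where the fit as reported called 0. Leaving the cell line out as a block (no pairing) called 0 of the 9 genes, as did the blocked fit. FPKM without counts gives no depth, so how firmly the low values of EREG and AREG in RT4 cells are measured is unknown.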
